A study of Rattus norvegicus with 17 samples.

Results

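Kallikrein-related peptidases and their inhibitor LEKTI, the product of Spink5, were followed in the meibomian gland (MG) of 17 rats. The 9 genes, Klk5, Klk6, Klk7, Klk8, Klk10, Klk11, Klk13, Klk14 and Spink5, were chosen by name, and all 9 were listed among the 17251 genes of the data. All rats were Sprague-Dawley females of 10 to 12 weeks, either wild-type (WT) or P1.hMR, which carry the human mineralocorticoid receptor under the proximal P1 promoter of its own gene, NR3C2. Irradiated rats received UVB on the shaved upper eyelids daily for 5 days, with the cornea and body covered, and control rats were left without UVB. This gave 4 groups, namely Control WT (n = 4), Control P1.hMR (n = 5), UVB WT (n = 3) and UVB P1.hMR (n = 5). Because the transgene follows a promoter of the receptor's own gene, its expression is not limited to the MG. The study's methods count the irradiated samples in eyes, so a sample may hold both eyelids of a rat.

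Kallikreins are secreted serine proteases made in upper layers of stratified epithelium. In epidermis, KLK5, KLK7 and KLK14 cut the desmosomal proteins that hold corneocytes together and so allow shedding, and KLK5 can activate itself and other kallikreins. LEKTI is cut into fragments that block several of these proteases, and its loss in Netherton syndrome leaves kallikrein activity unchecked. KLK5 also processes the cathelicidin precursor in skin, and KLK5, KLK6 and KLK14 can activate the receptor PAR2.

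Expression was deposited as TPM, the share of each transcript in the sample after scaling for its length, a unit that keeps no sequencing depth. Each rat had 12372 to 12737 genes at 1 TPM or more. As a check of the labels, the transgene NR3C2 was listed at 0 TPM in each of the WT rats, and P1.hMR rats had 5.31 to 9.31 TPM of it. Meibocyte genes were abundant, with Scd, a fatty acid desaturase, at 27692 ± 2517 TPM (SD, n = 4) and Awat2, a wax ester synthase, at 11610 ± 597 TPM (SD, n = 4) in Control WT rats. The dissected tissue also held Krt1, a keratin of differentiating keratinocytes, at 1471 ± 148 TPM (SD, n = 4) in the same rats. Krt13 and Krt4, listed as conjunctival markers, were at 3597 ± 452 and 1180 ± 178 TPM (SD, n = 4) in them. In bulk tissue, fewer cells of a type and less RNA per cell cannot be told apart. The kallikrein genes are a multigene family, so reads shared between members may have been divided among them when genes were quantified.

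Of the 9 genes, 8 kallikreins lie in 1 cluster on chromosome 1 and Spink5 lies on chromosome 18 in the RefSeq annotation of GRCr8. The 250 bases before the start of Klk14 and Klk13 are shown because these neighbours rose together after UVB, and those of Klk6 and Klk5 because these neighbours moved in opposite directions. Sequences are from RefSeq, GRCr8, plus strand, 5′ to 3′, with capitals marking matches on either strand to GGGNGGG, the core of a KLF or Sp box, or to GGAATG, the core of a TEAD site.
Klk14, chr1:103268287-103268536: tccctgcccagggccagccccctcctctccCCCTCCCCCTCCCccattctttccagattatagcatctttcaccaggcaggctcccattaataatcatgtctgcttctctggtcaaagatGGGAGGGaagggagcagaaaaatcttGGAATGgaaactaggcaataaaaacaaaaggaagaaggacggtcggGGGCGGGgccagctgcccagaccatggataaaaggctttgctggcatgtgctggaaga
Klk13, chr1:103301685-103301934: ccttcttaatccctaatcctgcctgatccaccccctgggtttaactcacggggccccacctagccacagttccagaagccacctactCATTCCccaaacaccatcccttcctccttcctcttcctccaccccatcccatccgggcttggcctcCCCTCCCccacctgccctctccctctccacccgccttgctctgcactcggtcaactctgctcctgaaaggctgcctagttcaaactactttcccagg
Klk6, chr1:103415266-103415515: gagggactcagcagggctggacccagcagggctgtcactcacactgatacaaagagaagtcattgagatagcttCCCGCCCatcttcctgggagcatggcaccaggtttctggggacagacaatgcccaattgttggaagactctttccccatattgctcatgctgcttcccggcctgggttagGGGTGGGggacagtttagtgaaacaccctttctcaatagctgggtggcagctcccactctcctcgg
Klk5, chr1:103432815-103433064: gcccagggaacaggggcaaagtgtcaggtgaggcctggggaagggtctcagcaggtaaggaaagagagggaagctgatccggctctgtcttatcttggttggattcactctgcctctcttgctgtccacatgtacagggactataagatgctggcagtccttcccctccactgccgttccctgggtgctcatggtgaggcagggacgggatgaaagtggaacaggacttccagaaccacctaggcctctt
Klk14 and Klk13 held both motifs, Klk6 held only GGGNGGG and Klk5 held neither. The 8 promoters searched were those of Klk5, Klk6, Klk7, Klk10, Klk11, Klk13, Klk14 and Spink5. Klk8, which rose in both genotypes, was not among them. GGAATG was found in 2 of them, against 12.1% of 33469 rat promoters of the same table, and GGGNGGG in 5, against 41.6%. The 5 include Klk11, with 5 overlapping matches, and Klk10, with 3, and neither gene was called in WT rats after UVB. A link between motifs and the UVB response was not tested. The AP-1 motif TGANTCA was in none of the 8 and in 6.34% of all promoters, the TATA box TATAAA in 1 and 12.9%, and TGTTCT, a core bound by steroid receptors, in 1 and 17.5%. Each motif was searched on both strands, matches were allowed to overlap, and a match is only a run of letters.

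After UVB, Klk6, Klk8, Klk13 and Klk14 rose and Klk5 fell in both genotypes, while Spink5 fell in WT rats and had a log2 fold change of -0.47, under the fold change threshold, in P1.hMR rats. Called means a Benjamini-Hochberg adjusted p under 0.05 in limma over all 13105 genes tested, with a log2 fold change of 0.5 or more in either direction. In WT rats, 6 of 9 members were called, 4 higher and 2 lower, against 7.91% of all genes, 3.92% higher and 3.98% lower. In P1.hMR rats, 6 of 9 were called, 5 higher and 1 lower, against 10.8% of all genes, 5.05% higher and 5.71% lower. The 2 comparisons share no rats, but they share the same estimate of each gene's spread and so are not independent. Of the 9 members, 4 were called higher in both, against 390 of all genes tested (2.98%). The members were chosen with earlier results of these data known, so an excess over these shares is not a test of them. The members had a median log2 fold change of 0.26 in WT rats and of 0.61 in P1.hMR rats, against 0.0054 and -0.016 over all genes.

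**Figure D1:**
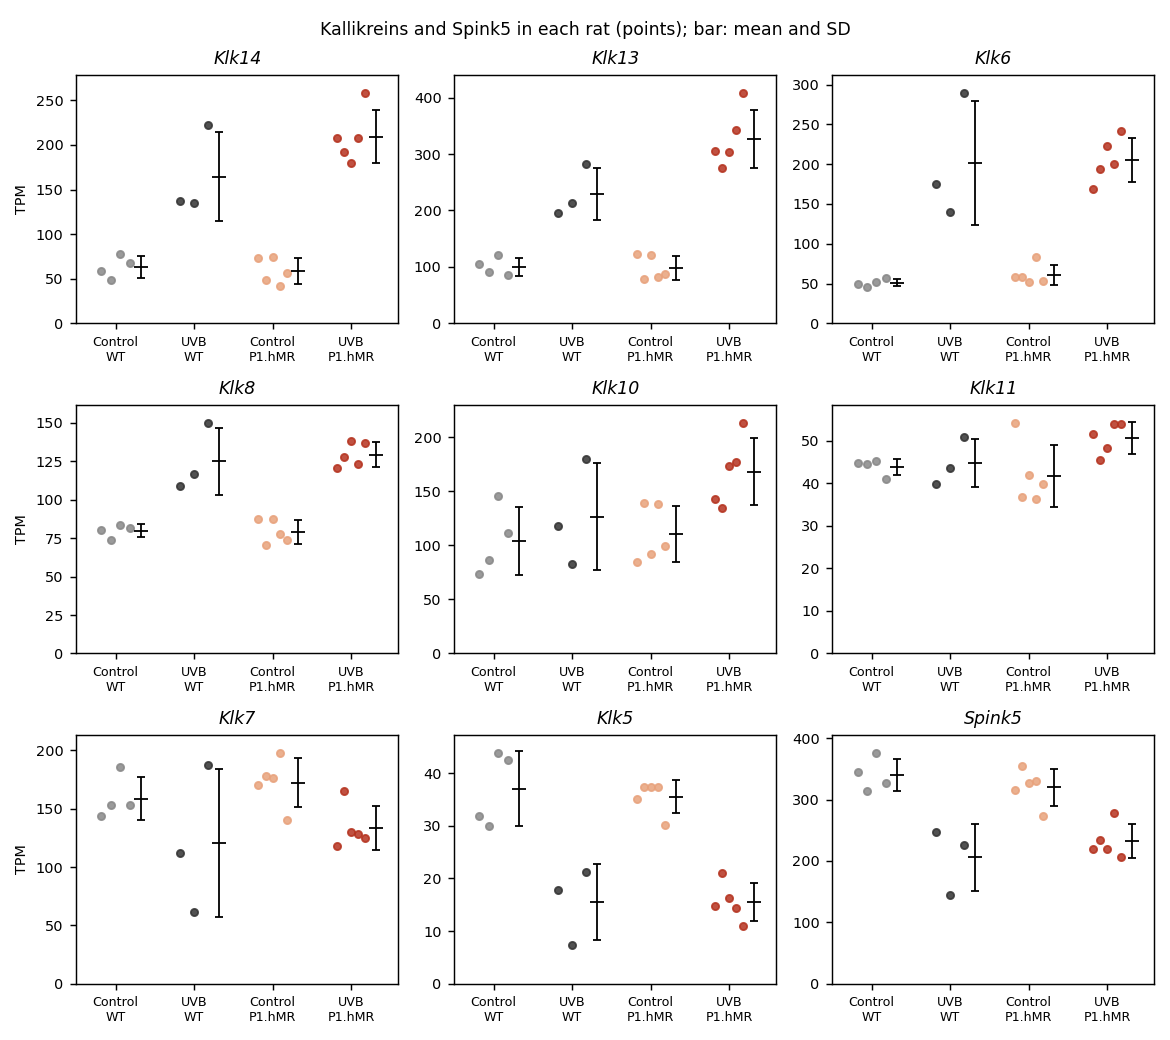
TPM of each of the 9 genes (y axis) in each rat (points) of the 4 groups (x axis), with the mean and SD beside the points. Klk14, Klk13, Klk6 and Klk8 in UVB rats sit above all control rats of the same genotype, Klk5 in UVB rats sits below all of them, and Klk11 overlaps between groups.

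Klk13 and Klk14 showed the most similar pair of profiles among the 9 genes. KLK14 is a trypsin-like protease of the shedding cascade, and KLK13 is a trypsin-like protease abundant in mucosal squamous epithelium. Klk13 was at 105, 90.15, 121 and 85.4 TPM in Control WT rats 1 to 4 and at 195, 213 and 282 TPM in UVB WT rats 1 to 3. In Control P1.hMR rats 1 to 5 it was at 123, 78.1, 121, 82.3 and 86.9 TPM, and in UVB P1.hMR rats 1 to 5 at 306, 275, 303, 342 and 408 TPM. Every UVB rat was above every control rat in both genotypes. Klk13 rose by a log2 fold change of 1.18 in WT rats (SE 0.18, adjusted p = 0.000429, limma) and of 1.74 in P1.hMR rats (SE 0.15, adjusted p = 9.67e-07, limma). By mean TPM, Klk13 became the most abundant kallikrein in both UVB groups, a rank that Klk7 had held in both control groups. Mean Klk13 was 229.8 ± 46.0 TPM (SD, n = 3) in UVB WT and 327 ± 51.4 TPM (SD, n = 5) in UVB P1.hMR rats. In UVB WT rat 3, Klk6 was higher, at 289.6 TPM against 282 TPM of Klk13.

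Klk14 was at 58.1, 48.45, 77.6 and 67.5 TPM in Control WT rats 1 to 4 and at 137, 135 and 222 TPM in UVB WT rats 1 to 3. Control P1.hMR rats 1 to 5 had 73.1, 48.0, 74.05, 42.1 and 56.0 TPM of Klk14, and UVB P1.hMR rats 1 to 5 had 208, 192, 180.2, 208 and 258 TPM. Control and UVB rats did not overlap in either genotype. The log2 fold change was 1.35 in WT (SE 0.21, adjusted p = 0.000538, limma) and 1.84 in P1.hMR rats (SE 0.18, adjusted p = 2.43e-06, limma). The distance between the Klk13 and Klk14 profiles, as the root-mean-square difference after standardising each over the 17 rats, was 0.1768, where 0 is the same profile.

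Klk6 had the largest rise in mean TPM ratio among the members in WT rats. KLK6 is a trypsin-like protease of keratinocytes and of the nervous system. Klk6 was at 49.99, 46.2, 51.6 and 56.8 TPM in Control WT rats and at 176, 139.7 and 289.6 TPM in UVB WT rats, 3.94-fold higher by the means. In Control P1.hMR rats it was at 58.1, 58.0, 52.0, 82.7 and 52.9 TPM, and in UVB P1.hMR rats at 169, 194, 223, 200.5 and 241 TPM, 3.39-fold higher by the means. The lowest irradiated rat lay above the highest control rat in each genotype. The log2 fold changes were 1.89 (SE 0.20, adjusted p = 2.49e-05, limma) and 1.75 (SE 0.16, adjusted p = 1.71e-06, limma).

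Klk8, a trypsin-like protease of keratinocytes also called neuropsin, rose less and with little spread. It was at 80.1, 73.96, 83.6 and 81.55 TPM in Control WT rats and at 109, 117 and 149.75 TPM in UVB WT rats. Control P1.hMR rats had 87.1, 70.3, 87.4, 77.9 and 73.5 TPM, and UVB P1.hMR rats had 120.45, 128, 138, 123 and 137 TPM. Groups did not overlap within either genotype. The log2 fold change was 0.63 in WT (SE 0.097, adjusted p = 0.000513, limma) and 0.70 in P1.hMR rats (SE 0.081, adjusted p = 9.56e-06, limma). Without UVB WT rat 3, the highest of its group, the WT value was 0.49 and no longer past the fold change threshold.

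Klk10 and Klk11 differed little or with much spread. KLK11 is a trypsin-like member of the family. Klk10 was at 73.1, 86.45, 145 and 112 TPM in Control WT rats and at 118, 82.3 and 179.6 TPM in UVB WT rats, and these groups overlapped (log2 fold change 0.26, SE 0.26, adjusted p = 0.518, limma). In P1.hMR rats it went from 84.75, 139, 92.1, 139 and 99.1 TPM to 143, 135, 173, 177 and 213 TPM, with UVB rat 2 inside the control range. That rise of 0.61 was called (SE 0.22, adjusted p = 0.0345, limma). The call was lost when any 1 of Control P1.hMR rats 1, 3 and 5 or UVB P1.hMR rats 3, 4 and 5 was left out, with values of 0.52 to 0.59 and adjusted p of 0.0622 to 0.0884 (limma).

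Klk11 was at 41.1 to 45.2 TPM in Control WT rats and at 40.0, 43.6 and 50.9 TPM after UVB, for a log2 fold change of 0.024 (SE 0.11, adjusted p = 0.908, limma). In P1.hMR rats the change was 0.28 (SE 0.092, adjusted p = 0.0229, limma), which is under the fold change threshold. Control P1.hMR rat 1, at 54.2 TPM, was above all UVB P1.hMR rats, which had 45.5 to 54.05 TPM.

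Klk5 went the other way. KLK5 is the trypsin-like protease placed at the head of the epidermal cascade and the best known target of LEKTI. Klk5 was at 31.96, 30.1, 43.8 and 42.6 TPM in Control WT rats and at 17.9, 7.41 and 21.3 TPM in UVB WT rats. It was at 35.2, 37.45, 37.4, 37.4 and 30.1 TPM in Control P1.hMR rats and at 14.7, 21.1, 16.3, 14.4 and 11.02 TPM in UVB P1.hMR rats. All UVB rats were below all control rats. Mean TPM after UVB was 0.418 of the control mean in WT rats and 0.436 of it in P1.hMR rats, with log2 fold changes of -1.30 (SE 0.26, adjusted p = 0.0025, limma) and -1.17 (SE 0.21, adjusted p = 0.00047, limma).

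Klk7, the chymotrypsin-like protease of corneocyte shedding, was the most abundant kallikrein without UVB. It was at 144, 153, 185 and 153 TPM in Control WT rats, and UVB WT rats 1 to 3 had 112, 61.6 and 187 TPM. The 3 UVB WT rats thus spanned both sides of the control range. The log2 fold change of -0.53 was not called (SE 0.24, adjusted p = 0.126, limma). It was -0.92 and called without UVB WT rat 3 (adjusted p = 0.00499, limma) and -0.12 without UVB WT rat 2. In P1.hMR rats, Klk7 was at 170.4, 178, 176, 197.5 and 140.0 TPM without and at 118, 166, 130.1, 128 and 125 TPM with UVB, which was -0.37 (SE 0.20, adjusted p = 0.155, limma) and not called. UVB P1.hMR rat 2 lay within the control range, and the other 4 lay below it.

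Spink5 encodes LEKTI. It was at 345, 315, 375 and 327 TPM in Control WT rats and at 247, 144 and 226 TPM in UVB WT rats, with no overlap. The log2 fold change was -0.76 (SE 0.14, adjusted p = 0.00199, limma). In Control P1.hMR rats it was at 315, 355, 327, 330.5 and 273 TPM, and in UVB P1.hMR rats at 220.2, 235, 219.6, 279 and 207 TPM. UVB P1.hMR rat 4 was above Control P1.hMR rat 5, and the other rats did not overlap. The log2 fold change of -0.47 passed the adjusted p (SE 0.12, adjusted p = 0.00577, limma) and missed the fold change threshold, and it was -0.52 and -0.53, past both, without Control P1.hMR rat 5 or UVB P1.hMR rat 4.

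**Figure D2:**
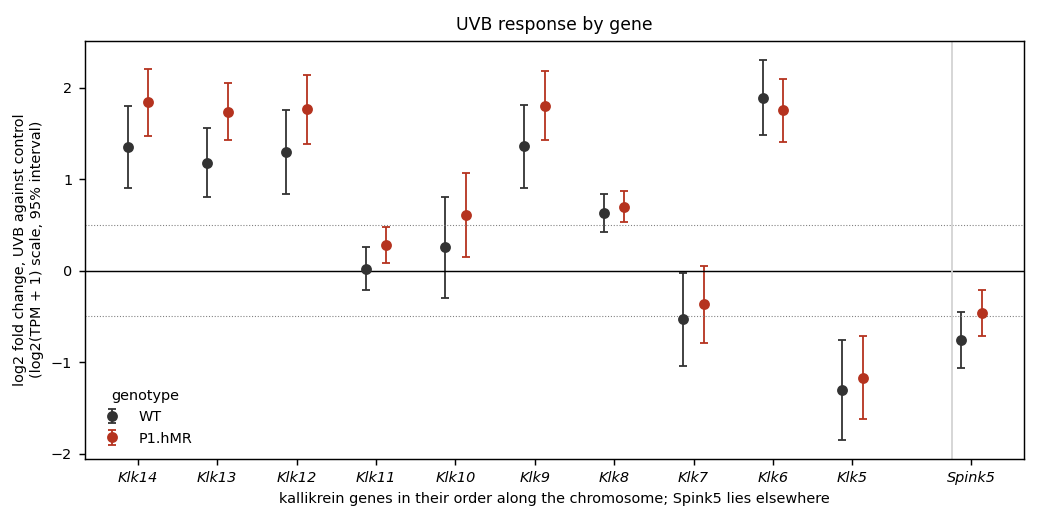
Log2 fold change of UVB against control on the log2(TPM + 1) scale (y axis) with its 95% interval, for each kallikrein in chromosome order and for Spink5 (x axis), in WT (black) and P1.hMR rats (red), with dotted lines at the threshold of 0.5. Klk6, at 1.89 and 1.75, lies between Klk7 and Klk5, whose values are below 0 in both genotypes.

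Direction was partly ordered along the cluster. In RefSeq order the genes are Klk14, Klk13, Klk12, Klk11, Klk10, Klk9, Klk8, Klk7, Klk6, Klk5, Klk4 and Klk15. The 7 genes from Klk14 to Klk8 all had values above 0 in both genotypes, and the values below 0 were those of Klk7 and Klk5 near the other end. Klk6, which rose, lies between these. Klk11, at 0.024 and 0.28, lies between Klk12, which rose, and Klk10. In WT rats the values of Klk11 and Klk10 fell below 0, to -0.069 and -0.030, without UVB WT rat 3. Over all genes tested, 51.2% had values above 0 in WT and 47.1% in P1.hMR rats. Of the other 14 kallikrein genes looked for, 7 were listed and 2 could be tested, Klk9 and Klk12, and both rose in both genotypes. Mean Klk12 was 8.54 TPM (SD 1.48, n = 4) in Control WT and rose to 22.6 TPM (SD 4.97, n = 3) in the irradiated WT rats. Its log2 fold change was 1.30 (adjusted p = 0.00085, limma) in WT and 1.77 (adjusted p = 4e-06, limma) in P1.hMR rats. Klk9 rose by 1.36 and 1.81 (adjusted p = 0.000582 and 3.25e-06, limma). Klk4 and Klk15 had means of at most 0.505 TPM in every group and were not tested.

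The genes nearest to each member by profile were sought among 9935 genes with a mean of at least 5 TPM, over the 17 rats. For both Klk13 and Klk14 the nearest was Klk12, at 0.1397 and 0.187, followed by Cnfn, encoding the cornified envelope protein cornifelin, at 0.1759 and 0.1921. Klk9 and Sprr3, a cornified envelope precursor, came next for Klk13 and Klk14 in turn. For Klk8 they were Car2, Tmprss11a and Defb4, and for Klk6 Cpxm1, Car2 and Edem2, all at 0.2045 to 0.2666. Klk5 was nearest to Ivl, encoding involucrin, at 0.2185, then Skint8 and Nebl. The nearest genes of the other 4 members were farther away. They were Lypd5, Mboat2 and AABR07044375.1 for Klk7, Xdh, St6gal1 and Ctsc for Klk10, Pla2g4d, Nudt21 and Zmpste24 for Klk11, and AC139642.1, Zfyve9 and Pla2g2f for Spink5, the nearest of each at 0.3826 to 0.4977. The 17 rats share the UVB contrast, so nearness here mostly reads which genes moved alike after UVB.

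The 8 kallikreins together gained on Spink5. Their summed TPM was 638 ± 82.1 (SD, n = 4) in Control WT and 1028 ± 312 (SD, n = 3) in UVB WT rats, and 657 ± 47.9 (SD, n = 5) and 1238 ± 126 (SD, n = 5) in Control and UVB P1.hMR rats. Divided by the Spink5 TPM of the same rat, this was 1.70, 1.82, 2.01 and 1.96 in Control WT rats 1 to 4 and 3.66, 5.54 and 6.12 in UVB WT rats 1 to 3. It was 1.82 to 2.17 in Control P1.hMR rats and 4.47 to 6.997 in UVB P1.hMR rats. No UVB rat overlapped with a control rat, and the geometric mean ratio was 2.67-fold higher in WT and 2.60-fold higher in P1.hMR rats. These ratios combine members already described and were not tested.

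After UVB, mean ratios to Spink5 were lower for Klk5 and higher for Klk7, with overlap between groups in WT rats for both and in P1.hMR rats for Klk7. Klk5 per Spink5 was 0.109 ± 0.0179 (SD, n = 4) in Control WT and 0.0726 ± 0.0214 (SD, n = 3) in UVB WT rats, and 0.111 ± 0.0035 (SD, n = 5) and 0.0672 ± 0.0159 (SD, n = 5) in P1.hMR rats. Klk7 per Spink5 was 0.466 ± 0.0350 (SD, n = 4) and 0.570 ± 0.225 (SD, n = 3) in WT, and 0.538 ± 0.0374 (SD, n = 5) and 0.579 ± 0.0905 (SD, n = 5) in P1.hMR rats. UVB WT rat 3, at 0.830, was above the Control WT maximum of 0.494, and the other UVB WT rats, at 0.454 and 0.427, were within the Control WT range. The make-up of the kallikrein transcripts also shifted. Klk7 held 24.9% ± 1.22 (SD, n = 4) of summed kallikrein TPM in Control WT and 11.2% ± 3.09 (SD, n = 3) in UVB WT rats, and Klk5 held 5.79% ± 0.623 and 1.48% ± 0.526 in the same groups. Klk6 held 8.08% ± 0.883 and 19.3% ± 1.73, and Klk13 15.8% ± 1.87 and 22.9% ± 3.32 in these groups. In P1.hMR rats Klk7 went from 26.2% to 10.9% and Klk13 from 14.9% to 26.3%.

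**Figure D3:**
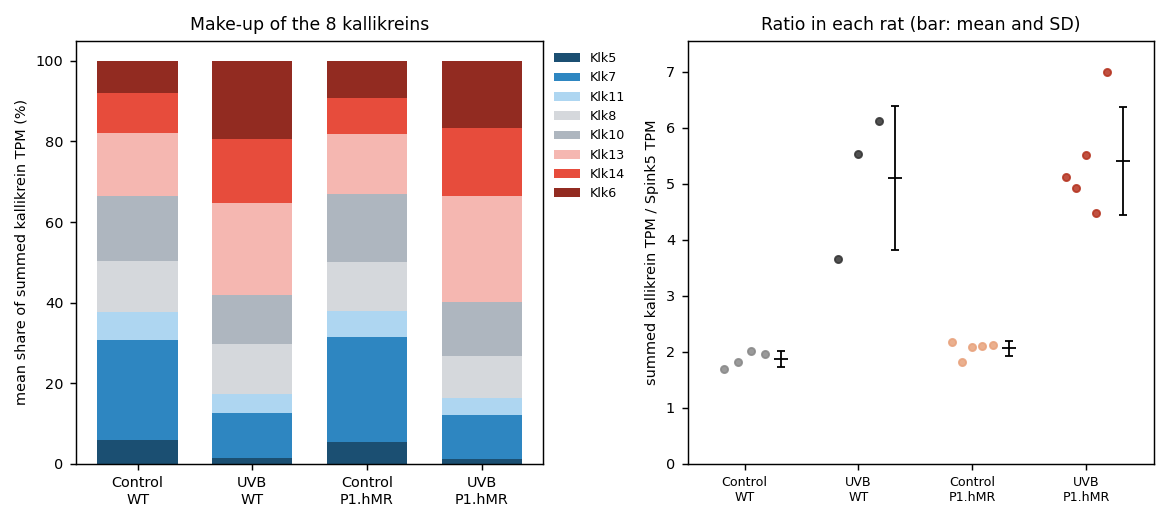
Left, mean share of each kallikrein in the summed TPM of the 8 kallikreins (y axis, percent) for the 4 groups (x axis). Right, summed kallikrein TPM divided by Spink5 TPM in each rat (points, with mean and SD), which is 1.70 to 2.17 in control rats and 3.66 to 6.997 in UVB rats.

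Markers of other cells in the dissected tissue moved with UVB. The summed TPM of 17 listed epidermal differentiation genes ran from 5051 to 6060 in Control WT and from 5240 to 7993 in UVB WT rats, and from 4597 to 5596 and from 5601 to 6784 in P1.hMR rats. Of the 17, 3 were called higher and 6 lower in WT rats, against 3.92% and 3.98% of all genes, and 4 higher and 6 lower in P1.hMR rats, against 5.05% and 5.71%. Examples are Cnfn at 1.37 and 1.84 and Ivl at -1.37 and -1.25. The summed kallikrein TPM of UVB WT rats 1 to 3 was 904, 798 and 1383, and their epidermal sums were 6045, 5240 and 7993, so both were lowest in rat 2 and highest in rat 3. The other groups kept the same order for both sums at most in part. In UVB P1.hMR rats 1 to 5 the kallikrein sums were 1130, 1155, 1212, 1247 and 1447 TPM and the epidermal sums 5670, 6661, 6784, 5601 and 6485 TPM, so rat 4 came next to the highest in the first and was lowest in the second. In Control WT rats both sums were lowest in rat 2. The highest kallikrein sum there was in rat 3 and the highest epidermal sum in rat 4. In Control P1.hMR rats both sums were lowest in rat 5, at 578 and 4597 TPM. The highest kallikrein sum there was in rat 4 and the highest epidermal sum in rat 3. The 17 listed hair shaft and root sheath genes summed to 1131 to 1498 TPM in Control WT and 426 to 1172 TPM in UVB WT rats, and to 915 to 1846 TPM and 614 to 956 TPM in P1.hMR rats. All 17 hair genes had values below 0 in both genotypes, and 13 were called lower in WT rats and 11 in P1.hMR rats, against 3.98% and 5.71% of all genes. The 14 listed meibocyte genes summed to 46880 to 56690 TPM in Control WT and 42980 to 49750 TPM in UVB WT rats. In P1.hMR rats they summed to 45960 to 51730 TPM and 40700 to 48290 TPM. Scd, at a mean of 27692 TPM in Control WT rats, holds a large part of these sums. Of the 14, 2 were called higher and 2 lower in WT rats, against 3.92% and 3.98% of all genes. In P1.hMR rats 1 was called higher and 2 lower, against 5.05% and 5.71%. The 8 listed conjunctiva and goblet genes summed to 3987 to 5409 TPM in Control WT and 4900 to 6380 TPM in UVB WT rats. In P1.hMR rats they summed to 4477 to 5270 TPM and 5084 to 6940 TPM. Of the 5 tested, 0 were called higher in either genotype, and 2 were called lower in WT and 3 in P1.hMR rats, against the same shares. The part of these cell types in the kallikrein values was not tested.

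Between genotypes, no member was called. Under UVB, all 9 log2 differences of P1.hMR against WT were above 0, with a median of 0.20, against 43.5% of all genes tested above 0 and a median of -0.019. Some marker lists of other cells leaned the same way, with 16 of 17 hair shaft and root sheath genes (median 0.27), 8 of 8 skeletal muscle genes (median 0.10) and 8 of 8 leukocyte genes (median 0.15) above 0. Others did not, with 9 of 17 epidermal differentiation genes (median 0.0083) and 5 of 14 meibocyte genes (median -0.021) above 0. Conjunctiva and goblet genes had 3 of 5 above 0 (median 0.079), and basal and wound keratins 2 of 3 (median 0.027). Limma called 0 of the 9, against 0.0229% of all genes, and 1 of the 9 had an unadjusted p under 0.05, against 10.3% of all genes. That member was Klk13, at 0.51 (95% interval 0.15 to 0.87, adjusted p = 0.325, limma). Its UVB P1.hMR rats ran from 275 to 408 TPM and its UVB WT rats from 195 to 282 TPM, and UVB P1.hMR rat 2 lay below UVB WT rat 3. With each rat left out and under the other settings tried, this difference ran from 0.40 to 0.67, with adjusted p from 0.105 to 0.686 (limma). Klk10 was at 0.46 (95% interval -0.070 to 0.99) and Klk14 at 0.37 (95% interval -0.054 to 0.80). For Klk5, Klk6, Klk7, Klk8 and Spink5 the sign turned when 1 UVB WT rat was left out, which was rat 1 for Klk8 and rat 2 for the others, and for Klk5 also without UVB P1.hMR rat 2.

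Without UVB, limma called 0 of 9 members between genotypes, against 0.00763% of all genes, and 0 had an unadjusted p under 0.05, against 4.03% of all genes. Differences ran from -0.11 for Klk14 to 0.23 for Klk6. Their 95% intervals stayed between -0.52 and 0.59.

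**Figure D4:**
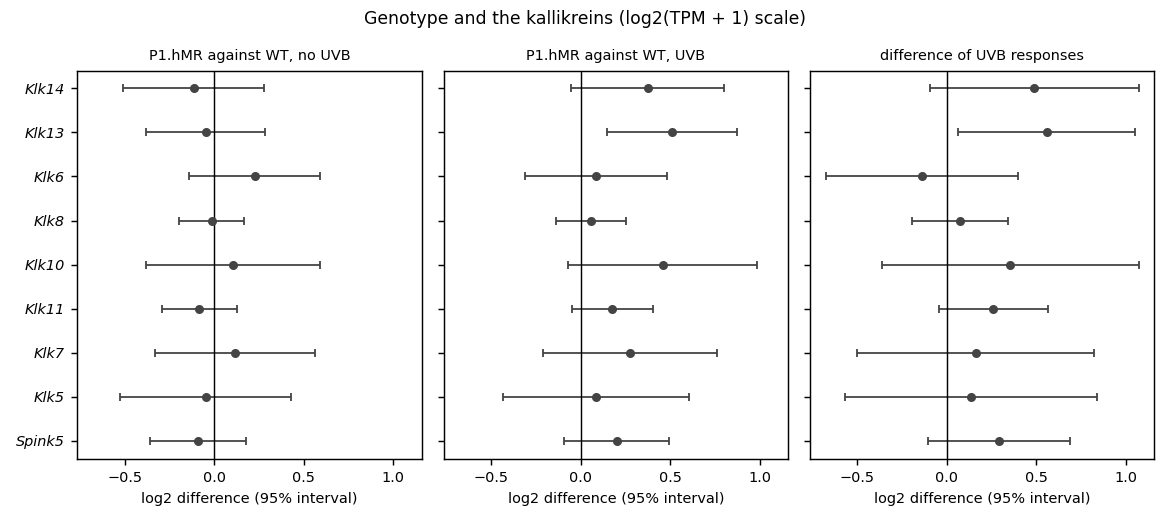
Log2 difference on the log2(TPM + 1) scale with its 95% interval (x axis) for the 9 genes (y axis) of P1.hMR against WT without UVB (left), under UVB (middle), and of the UVB response in P1.hMR against that in WT rats (right). The intervals cross 0 except those of Klk13 under UVB (0.15 to 0.87) and for the response (0.064 to 1.05), neither of which passed the adjusted p.

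The difference between the UVB responses of the genotypes was tested as an interaction. It was called for 0 of 9 members in limma, against 0% of all genes, and 1 of the 9 had an unadjusted p under 0.05, against 6.92% of all genes. Klk13 again had that p, with a response larger in P1.hMR rats by 0.56 (95% interval 0.064 to 1.05, adjusted p = 0.711, limma). Klk14 was at 0.49 (95% interval -0.095 to 1.07), Klk10 at 0.35 (95% interval -0.36 to 1.07) and Spink5 at 0.29 (95% interval -0.10 to 0.69). Klk6 was the exception in sign, at -0.14 (95% interval -0.68 to 0.40). Of the 9 differences 8 were above 0 (median 0.26), against 45.0% of all genes. The same held for 17 of 17 hair shaft and root sheath genes (median 0.30) and 8 of 8 skeletal muscle genes (median 0.12). It held for 11 of 17 epidermal differentiation genes (median 0.071), 9 of 14 meibocyte genes (median 0.088) and 2 of 3 basal and wound keratins (median 0.019). Leukocyte genes had 4 of 8 above 0 (median 0.00069), and conjunctiva and goblet genes 2 of 5 (median -0.084). That Klk10 was called in P1.hMR rats alone and Spink5 in WT rats alone is therefore not shown to be a difference between genotypes.

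Proteases that act with kallikreins moved in both directions. Of 24 genes listed as cascade proteases, 19 were tested, with 3 higher and 3 lower in WT rats (median log2 fold change 0.099) and 6 higher and 1 lower in P1.hMR rats (median 0.18). Over all genes, 3.92% were called higher and 3.98% lower in WT rats, and 5.05% and 5.71% in P1.hMR rats, and these shares apply to the next lists too. Tmprss11a, a membrane serine protease of squamous epithelium, rose by 1.85 and 1.82 (adjusted p = 0.000115 and 4.8e-06, limma) and had 3.61 to 6.46 TPM in Control WT and 16.2 to 30.85 TPM in UVB WT rats. Its relatives Tmprss11f and Tmprss11b rose in P1.hMR rats by 0.90 and 0.83 (adjusted p = 9.45e-06 and 3.96e-05, limma). They were at 0.35 and 0.47 in WT rats (adjusted p = 0.0541 and 0.0212, limma), which was not called, and neither difference between the responses was called. Plat, the tissue plasminogen activator, rose by 0.77 and 0.83 (adjusted p = 0.00547 and 0.000303, limma). Prss27, Tmprss4 and Tmprss11e, named after their values were seen, were the 3 called lower in WT rats. Prss27 was at -0.68 and -0.76 (adjusted p = 0.00283 and 9.58e-05, limma), called in both genotypes. Tmprss4 was at -0.76 and -0.34 and Tmprss11e at -0.75 and -0.24, and neither was called in P1.hMR rats. There, Tmprss4 passed the adjusted p (adjusted p = 0.0181, limma) and missed the fold change threshold. Tmprss11e passed neither (adjusted p = 0.0941, limma). For both genes the difference between the responses of the genotypes was not called. St14, encoding matriptase, which can activate kallikrein precursors, was at -0.0018 and 0.00057 (adjusted p = 0.986 and 0.994, limma), and was named for its role after its values were seen.

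Among 39 listed protease inhibitors, 25 were tested, with 4 higher and 4 lower in WT rats and 6 higher and 3 lower in P1.hMR rats, against the same shares of all genes, and with medians of -0.070 and -0.024. Serpina1, encoding alpha-1 antitrypsin, fell by 1.54 in WT and by 1.84 in P1.hMR rats (adjusted p = 0.0017 and 2.46e-05, limma). Cst6, encoding cystatin M/E, an inhibitor of cysteine proteases in skin, was at 2203 to 3677 TPM in Control WT and 852 to 1595 TPM in UVB WT rats, and its log2 fold change was -1.29 (adjusted p = 0.000385, limma), and had -1.53 in P1.hMR rats. Serpinb2, encoding plasminogen activator inhibitor 2, rose by 1.27 and 1.63 (adjusted p = 0.000812 and 5.21e-06, limma). Wfdc18 rose by 1.71 and 1.43 (adjusted p = 0.038 and 0.0216, limma) with overlap between groups, from levels of at most 2.67 TPM in control rats. Slpi, encoding a secreted inhibitor of serine proteases and named after its values were seen, rose by 1.52 and 1.39 (adjusted p = 0.00316 and 0.00055, limma). Spink5 was thus 1 of several inhibitors of either direction.

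Of 24 listed substrates, cytokines and receptors of these proteases, 17 were tested, with 3 called higher and 0 lower in WT rats, against 3.92% and 3.98% of all genes, and 4 called higher and 0 lower in P1.hMR rats, against 5.05% and 5.71%. Il36a, encoding an epithelial IL-1 family cytokine, was at 0 to 0.31 TPM in Control WT and 0.98 to 3.51 TPM in UVB WT rats, and at 0 to 0.63 TPM and 1.80 to 6.18 TPM in P1.hMR rats (log2 fold change 1.53 and 2.08, adjusted p = 0.00334 and 2.09e-05, limma). Its relative Il36g rose by 1.33 and 1.49 (adjusted p = 0.00378 and 0.000127, limma). Mmp9, a matrix metalloprotease, rose by 0.85 and 0.63 (adjusted p = 0.00277 and 0.00225, limma) from at most 0.42 TPM. Il36a and Mmp9 stayed under 1 TPM in every control rat, so they passed the filter only through UVB rats. Neither could have been called lower, and both are among the genes counted as higher in each genotype. Il1b rose by 1.35 in P1.hMR rats (adjusted p = 0.000479, limma) and was at 0.53 in WT rats (adjusted p = 0.222, limma), and the difference between genotypes was not called. Their levels were at most 10.2 TPM in any rat, where the log2(TPM + 1) scale understates change. Dsg1, a desmosomal cadherin cut by kallikreins, and F2rl1, encoding PAR2, were named for their role after their values were seen. They were at 0.069 and 0.16, and at 0.30 and 0.027, and were not called.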

How the data were processed

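RNA from the MG of 17 rats in 4 groups was sequenced, with 1 deposited column per rat. The authors deposited TPM for 17251 genes with 2 decimals and a decimal comma. The methods name STAR and RSEM with rn7, while the submitters' processing notes list FastQC, Trimmomatic, DRAGEN, Picard and rn7, and which made the table is not settled. TPM holds no counts, so depth is unknown and precision rests on the spread between rats. Labels do not say whether rats came from separate litters.

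Values were taken as log2(TPM + 1). Genes reaching 1 TPM in 3 or more rats, 13105 in all, were fitted in 1 model in limma 3.58.1 (R 4.3.3), with a mean per group and a variance trend. Genes were called when the two-sided Benjamini-Hochberg adjusted p was under 0.05 and the log2 fold change 0.5 or more in either direction. DESeq2 needs counts and was not used. The model was tested on simulated data. Python 3.11.15, numpy 2.4.6, pandas 2.3.3 and matplotlib 3.10.9 served for summaries. The members and lists were chosen with earlier results of these data known. Named genes were the 9 members, NR3C2, and up to 4 called genes per list with the largest change in P1.hMR rats after UVB. Up to 2 per marker list and the 3 nearest profiles of each member outside the 9 members were also named. Alternatives were a pseudocount of 0.1, other filters, scalings and thresholds, sample weights, only the groups compared, a replicate block, and each rat left out.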

Additional observations from a re-analysis of the deposited data

Results flagged for a closer look

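Among 27 groups of 4 or 5 rats examined, 2 held a rat far from the others, where chance alone would mark about 1 group in 20. Control P1.hMR rat 4 had 82.7 TPM of Klk6, with a gap to the next rat of 0.799 of the group's range. UVB P1.hMR rat 2 had 165.6 TPM of Klk7, with a gap of 0.7397 of the range. UVB WT holds 3 rats and was not examined in this way.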

How the results depend on the processing

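The numbers of members called, 6 in each UVB comparison, ran from 4 to 6 in WT and from 4 to 8 in P1.hMR rats over the alternatives, and were 0 for the genotype comparisons and the interaction under all of them. With a replicate block, 6 and 6 members were called. Same-numbered rats correlated at -0.187 to 0.235 in their deviations from group means, and 3 of 15 correlated best with their own number, so the numbers do not pair the rats. Signs turned with sample weights for Klk5 between genotypes under UVB (-0.023), and without UVB with the block for Klk5 (0.035) and with quantile normalization for Klk8 (0.00415). With each rat left out, the UVB response in WT rats ran from -0.030 to 0.53 for Klk10 and from -0.069 to 0.10 for Klk11. Under UVB, the genotype difference ran from -0.34 to 0.36 for Klk5, -0.14 to 0.38 for Klk6, -0.13 to 0.66 for Klk7, -0.034 to 0.20 for Klk8 and -0.034 to 0.35 for Spink5. Without UVB it ran from -0.14 to 0.038 for Klk5, -0.050 to 0.027 for Klk8, -0.047 to 0.28 for Klk10 and -0.13 to 0.047 for Klk13. The interaction ran from -0.29 to 0.41 for Klk5, -0.37 to 0.15 for Klk6, -0.25 to 0.55 for Klk7 and -0.020 to 0.21 for Klk8. Klk10 in P1.hMR rats also missed the threshold with no filter on low values (adjusted p = 0.0504, limma). Over all genes, 1036 and 1410 calls became 2820 and 5123 with no fold change threshold, 219 and 300 at a log2 fold change of 1 or more, and 690 and 882 at a mean of at least 5 TPM. Under those settings cascade protease calls went from 6 and 7 to 10 and 11 without the threshold and to 2 and 1 at the stricter fold. Inhibitor calls went from 8 and 9 to 13 and 16 without it, and substrate calls from 3 and 4 to 0 and 0 at a mean of at least 5 TPM.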
